A study of Mus musculus with 9 samples.

Results

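The 10 genes described here encode the route by which a cell takes up glucose and turns it into lactate, and they were chosen by name: Slc2a1, Hk1, Hk2, Pfkp, Aldoa, Gapdh, Pgk1, Eno1, Pkm and Ldha. All 10 of 10 were present in the table of 17943 genes and passed the filter on low counts, a sum of at least 10 counts over the 9 mice, which 16426 genes passed. Bulk RNA-seq was carried out on skin of mice in which SPT6, a histone chaperone that travels with RNA polymerase II, was deleted from keratinocytes, and the comparison asks how the transcriptome differs once the protein is lost. The Supt6 KO group held 4 K14-CreERT; Supt6 fl/fl mice given tamoxifen, harvested on day 10 after the last injection, and the control group held 5 mice that the labels call wild-type and that received corn oil. The study gives their genotype as Supt6 fl/fl and names no Cre transgene for them. The K14 promoter drives Cre in basal keratinocytes, so that fibroblasts, muscle, vessels and leukocytes of the same sample kept the gene. With floxed alleles in both groups, and Cre and tamoxifen named for the Supt6 KO mice alone, effects of the transgene, the drug and the deletion cannot be told apart. The labels name the ear and the methods name dorsal skin, and neither gives the strain or the age of these mice. The study places the injections in the first telogen phase of the hair cycle and calls the Supt6 KO skin used for RNA-seq lesional. Cartilage markers summed to between 425 and 974 CPM (counts scaled to a common library size) in the controls and between 68.2 and 85.9 in the Supt6 KO mice, with Acan the most abundant, 7 of 8 lower and Matn1 under the filter on low counts, and the keratinocyte markers Krt5, Krt14 and Krt10 were abundant in both groups.

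Glucose enters keratinocytes mainly through the facilitative transporter GLUT1, the product of Slc2a1, and is trapped by phosphorylation by a hexokinase. Phosphofructokinase commits the sugar to glycolysis, aldolase splits it, and GAPDH, phosphoglycerate kinase, enolase and pyruvate kinase carry the products to pyruvate with a net yield of ATP, after which lactate dehydrogenase A regenerates NAD+ by making lactate. Most steps have several isozymes encoded by separate genes that are used to different degrees in epithelium, muscle and leukocytes. The hypoxia-inducible factor HIF-1 and MYC are the best known activators of these genes, and epidermis is known as a strongly glycolytic tissue. In a bulk sample, fewer cells of a type and less RNA per cell cannot be told apart.

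The promoters of members that rose and of members that fell are shown because HIF-1 is known to bind the core letters ACGTG or GCGTG in the promoters of glycolytic genes. Each sequence is the 250 bases before the first start site listed by RefSeq (build GRCm38.p6), written from 5′ to 3′ on the strand of the gene. The first listed start is not always the outermost one, and the windows of Ldha and Pfkp lie inside the gene spans given below. Capitals mark ACGTG or GCGTG read on either strand, so that CACGT and CACGC are the same motifs on the opposite strand, and a CACGTG counts as a match on both.

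The Ldha promoter, at chr7:46845554-46845803 (+ strand), held 5 matches at 3 places, of which the closest began 34 bases before the start.
Ldha: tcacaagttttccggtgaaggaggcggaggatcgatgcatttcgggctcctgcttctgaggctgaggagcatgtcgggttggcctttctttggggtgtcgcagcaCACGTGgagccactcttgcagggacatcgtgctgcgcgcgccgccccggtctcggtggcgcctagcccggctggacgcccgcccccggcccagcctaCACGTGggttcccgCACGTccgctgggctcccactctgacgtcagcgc

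Those of Pgk1 at chrX:106186850-106187099 (+ strand) and Slc2a1 at chr4:119108495-119108744 (+ strand) held 2 each.
Pgk1: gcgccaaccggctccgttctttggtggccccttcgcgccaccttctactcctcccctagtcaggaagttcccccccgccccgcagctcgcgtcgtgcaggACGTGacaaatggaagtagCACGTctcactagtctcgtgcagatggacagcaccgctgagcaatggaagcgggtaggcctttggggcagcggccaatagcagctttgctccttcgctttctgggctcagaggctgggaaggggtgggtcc
Slc2a1: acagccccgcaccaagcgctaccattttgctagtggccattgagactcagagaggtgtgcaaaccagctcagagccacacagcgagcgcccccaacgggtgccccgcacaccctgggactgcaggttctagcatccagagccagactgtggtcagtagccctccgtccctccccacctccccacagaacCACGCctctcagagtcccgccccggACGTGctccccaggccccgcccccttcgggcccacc

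Those of Hk2 at chr6:82774455-82774704 (− strand) and Pfkp at chr13:6648772-6649021 (− strand), whose transcripts fell, held 2 and 3.
Hk2: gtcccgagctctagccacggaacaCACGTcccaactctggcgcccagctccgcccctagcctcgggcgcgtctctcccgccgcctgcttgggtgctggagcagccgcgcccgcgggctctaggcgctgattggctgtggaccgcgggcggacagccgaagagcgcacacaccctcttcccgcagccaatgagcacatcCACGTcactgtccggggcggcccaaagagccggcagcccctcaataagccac
Pfkp: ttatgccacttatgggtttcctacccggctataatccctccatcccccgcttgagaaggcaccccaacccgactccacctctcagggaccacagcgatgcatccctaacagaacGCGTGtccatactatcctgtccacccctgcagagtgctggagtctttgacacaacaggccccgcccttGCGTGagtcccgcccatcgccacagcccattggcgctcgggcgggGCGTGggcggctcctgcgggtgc

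Gapdh held 2 matches and Eno1 held 1, and the first listed starts of Hk1, Aldoa and Pkm held none. In all, 7 of the 10 genes had a match before the first listed start, against 51.9% of the 13006 tested genes with a listed promoter and 38.6% of all 27025 listed genes. When every listed start was read, 10 of 10 genes had a match, against 56.1% of tested genes. A gene with more listed starts has more chances of a match. Hk1, Aldoa, Eno1, Pkm and Ldha have several, and the comparison was not matched for their number. The motif was present in promoters of members that rose, fell and did not pass the test, and a match is not evidence that a factor binds there.

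Sequencing depth was even, with 29627341 to 30967107 estimated counts per mouse. Values below are CPM after TMM scaling (a scaling that assumes most genes do not change), fold changes are Supt6 KO over control on the log2 scale with their standard error (SE), and a gene was called when edgeR's quasi-likelihood test gave a Benjamini-Hochberg adjusted p below 0.05 over the 16426 genes. TMM factors were between 1.198 and 1.315 in the controls and between 0.674 and 0.910 in the Supt6 KO mice. The middle of the distribution over all genes lay at a log2 fold change of -0.07 with TMM and of -0.76 with library totals, so every fold change is relative to that choice of zero. Supt6 itself was measured at 74.5, 56.6, 63.6, 91.1 and 96.7 CPM in controls 1 to 5 and at 28.6, 24.1, 21.9 and 28.4 CPM in Supt6 KO mice 1 to 4. No Supt6 KO mouse reached the lowest control, and the log2 fold change was -1.57 (SE 0.18, edgeR adjusted p = 1.3e-05). Supt6 KO mouse 4 stood apart from the other Supt6 KO mice and was the highest of them for 9 of the 10 genes, the exception being Hk2. The same mouse had the highest summed proliferation markers, 941.4 CPM against 303.8 to 408.1 in the other Supt6 KO mice and 208.5 to 259.7 in the controls, and its suprabasal keratinocyte markers summed to 20570 CPM against 40200 to 42680. Fold changes without this mouse are given for each of the 10 genes, and for some of the other genes.

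Of the 10 genes, 4 rose, 3 fell and 3 did not pass the test. Among all genes tested, 34.1% were called higher and 36.8% lower. Pgk1, Slc2a1, Ldha and Eno1 rose by 2-fold or more, as did 20.9% of all genes tested. Hk1 fell by 2-fold or more, as did 24.9% of all genes, and Hk2 and Pfkp fell by less. The median log2 fold change of the 10 was 0.30 against -0.07 over all genes, and -0.03 against -0.12 without Supt6 KO mouse 4. The 4 that rose were above every control in every Supt6 KO mouse, a pattern held by 28.9% of all genes, and the 3 that fell were below every control, as were 31.8%. Summed over the 10 genes, the level was 3148 to 3647 CPM in the controls and 4274, 3895, 5260 and 8839 CPM in Supt6 KO mice 1 to 4. Scaled by library totals alone in place of TMM, Pgk1 alone of the 10 had every Supt6 KO mouse above every control (13.8% of all genes), Hk1, Hk2 and Pfkp stayed below every control (49.0%), and the other 6 overlapped. The summed level was then 4139 to 4499 CPM in the controls and 3337, 2625, 3714 and 8042 CPM in the Supt6 KO mice, so that mice 1 to 3 lay below every control and mouse 4 above.

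Slc2a1 (NCBI gene 20525, chr4:119108745-119137330) is the uptake step. It was measured at 43.9, 43.9, 40.7, 52.7 and 49.5 CPM in the controls and at 92.2, 83.3, 126.4 and 195.8 CPM in the Supt6 KO mice. The lowest Supt6 KO mouse lay above the highest control, whereas with library totals Supt6 KO mouse 2, at 56.1 CPM, lay within the controls (49.6 to 65.2 CPM). The log2 fold change was 1.43 (SE 0.22, edgeR adjusted p = 0.00014), 1.12 without Supt6 KO mouse 4 and 0.78 with library totals.

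Of the 10 genes, the hexokinases Hk1 and Hk2 were lower, the call for Hk2 depending on the correction for length given below. Hk1 (15275, chr10:62268855-62379920), the broadly expressed isozyme that sits on mitochondria, was measured at 75.2, 59.4, 63.4, 90.4 and 94.5 CPM in the controls and at 29.0, 18.8, 20.9 and 39.3 CPM in the Supt6 KO mice. The groups did not overlap, and the log2 fold change was -1.503 (SE 0.23, edgeR adjusted p = 0.00013), and -1.75 without Supt6 KO mouse 4. Hk2 (15277, chr6:82725025-82774454), the inducible isozyme of muscle and of proliferating cells, was measured at 45.9, 33.0, 32.3, 46.2 and 44.6 CPM in the controls and at 30.4, 24.3, 21.8 and 26.5 CPM in the Supt6 KO mice. The highest Supt6 KO mouse lay just under the lowest control, and the log2 fold change was -0.65 (SE 0.15, edgeR adjusted p = 0.0028), and -0.67 without mouse 4.

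Pfkp (56421, chr13:6579874-6649060) encodes the platelet type of phosphofructokinase. Its values were 105.8, 92.8, 89.4, 112.4 and 92.6 CPM in the controls and 45.3, 43.4, 51.7 and 85.6 CPM in the Supt6 KO mice. Supt6 KO mouse 4 came close to the lowest control while the others were far below it. The log2 fold change was -0.80 (SE 0.20, edgeR adjusted p = 0.0032), and -1.08 without that mouse. When a trend of level on the length of the longest annotated transcript was removed in each mouse, the log2 fold change of Pfkp became -0.05 (adjusted p = 0.84) and that of Hk2 -0.20 (adjusted p = 0.19). When the length implied by the deposited counts and TPM was used instead, a choice made after those values were seen, Pfkp was at -0.44 (adjusted p = 0.046) and Hk2 at -0.04 (adjusted p = 0.80). The call for Hk2 was lost under both lengths, that for Pfkp depended on which length was used, and that for Hk1 was kept at -1.25 and -1.11.

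In the middle of the pathway, Aldoa and Gapdh did not pass the test with TMM and all mice. Aldoa (11674, chr7:126795234-126800994), the aldolase of muscle and most other tissues, was measured at 950.2, 977, 949.6, 804 and 737 CPM in the controls and at 887, 839.8, 899 and 1068 CPM in the Supt6 KO mice. The groups overlapped, with a log2 fold change of 0.06 (SE 0.15, edgeR adjusted p = 0.71) that was -0.017 without Supt6 KO mouse 4. The value was -0.61 with library totals (adjusted p = 0.0077), -0.44 with the longest-transcript correction (adjusted p = 0.013) and -0.36 with the implied length (adjusted p = 0.028). Gapdh (14433, chr6:125161852-125166467), which oxidizes the triose phosphates and is often used as a reference gene, was measured at 954, 986, 935, 871 and 834 CPM in the controls and at 1032, 700.5, 964 and 2108 CPM in the Supt6 KO mice. It spread widely within the Supt6 KO group and overlapped the controls, with a log2 fold change of 0.39 (SE 0.27, edgeR adjusted p = 0.22) that was -0.03 without Supt6 KO mouse 4.

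Pgk1 (18655, chrX:106187100-106203699), which makes the first ATP of the pathway, had the largest change of the 10 genes with TMM. With library totals the largest was that of Hk1, at -2.16. Pgk1 was measured at 211.5, 226.7, 210.3, 181.7 and 168.0 CPM in the controls and at 555, 787, 1186 and 1417 CPM in the Supt6 KO mice. Every Supt6 KO mouse was far above every control, and the log2 fold change was 2.305 (SE 0.25, edgeR adjusted p = 9.7e-06), 2.08 without Supt6 KO mouse 4 and 1.64 with library totals. Eno1 (13806, chr4:150236708-150248879), the enolase of most non-muscle cells, was measured at 216.9, 199.5, 187.1, 204.6 and 222.0 CPM in the controls and at 334, 227.0, 363 and 885.5 CPM in the Supt6 KO mice. Supt6 KO mouse 2 was barely above the highest control. The log2 fold change of 1.13 (SE 0.32, edgeR adjusted p = 0.0074) was 0.57 without mouse 4 (adjusted p = 0.0039) and 0.52 with library totals, where the call was lost (adjusted p = 0.24).

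Pkm (18746, chr9:59656576-59679372) encodes both the M1 and the M2 forms of pyruvate kinase by alternative splicing, which gene-level counts cannot separate. It was measured at 527, 490.2, 481, 553 and 538 CPM in the controls and at 447.5, 355, 498 and 1093 CPM in the Supt6 KO mice. Supt6 KO mice 1 and 2 lay below every control and mouse 4 lay far above them, and the log2 fold change was 0.21 (SE 0.28, edgeR adjusted p = 0.52) with all mice and -0.26 without mouse 4 (adjusted p = 0.088). Ldha (16828, chr7:46842274-46855627), the last step to lactate, was measured at 487, 538.5, 455, 427 and 367 CPM in the controls and at 822, 817, 1130 and 1920 CPM in the Supt6 KO mice. The groups did not overlap on this scale, although with library totals Supt6 KO mice 1 and 2 lay within the controls. The log2 fold change was 1.36 (SE 0.25, edgeR adjusted p = 0.00049), 1.02 without mouse 4 and 0.73 with library totals (adjusted p = 0.044).

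Several of these genes have near-identical processed copies in the genome, and RSEM divides reads that fit more than one place. The deposited counts of Hk1, Hk2, Aldoa, Gapdh, Pgk1, Pkm and Ldha were whole, to within 0.005, in all 9 mice, those of Slc2a1 were not whole in 1 mouse, those of Eno1 in 6 and those of Pfkp in 8. The share of reads that could belong to a copy is uncertain.

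The 3 genes that fell had the longest genomic spans of the 10, at 111066 bases for Hk1, 69187 for Pfkp and 49430 for Hk2, and the longest of the other 7 was Slc2a1 at 28586 bases. Over all genes tested, the 4522 genes with a span of at least that of Hk2 were centred on a log2 fold change of -0.66 (median), and the 9425 genes with a span of at most that of Slc2a1 on 0.26. When a trend on genomic span was removed in each mouse, a choice made after the data were seen, the log2 fold changes were -1.06 for Hk1, -0.50 for Pfkp, -0.43 for Hk2, 1.496 for Slc2a1, 2.22 for Pgk1, 0.97 for Eno1 and 1.23 for Ldha. Each of the 10 genes kept its call or its lack of one. The part of span in these differences was not tested further.

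Levels can be compared between genes on the per-length TPM scale, which was deposited for the 5 controls and for Supt6 KO mouse 4. In the controls the order of TPM levels was Gapdh at 1317 ± 89.9 (SD, n = 5), Aldoa at 1178 ± 61.9, Ldha at 549 ± 36.4, Pkm at 391.7 ± 68.4, Eno1 at 226.4 ± 41.9, Pgk1 at 208.7 ± 9.81, Pfkp at 42.3 ± 7.20, Slc2a1 at 32.8 ± 6.93, Hk1 at 32.3 ± 10.5 and Hk2 at 12.5 ± 3.43. The later steps of the pathway were thus more abundant than the transporter and the kinases at its entry. The ranges over control mice overlapped for the neighbours Gapdh and Aldoa, Eno1 and Pgk1, Pfkp and Slc2a1, and Slc2a1 and Hk1, and did not overlap for Aldoa and Ldha, Ldha and Pkm, Pkm and Eno1, Pgk1 and Pfkp, or Hk1 and Hk2. In Supt6 KO mouse 4, the TPM levels were 1534 for Gapdh, 1178 for Ldha, 752 for Pgk1, 719 for Aldoa, 486 for Eno1, 412 for Pkm, 69.2 for Slc2a1, 18.3 for Pfkp, 8.12 for Hk1 and 4.06 for Hk2. This mouse placed Ldha and Pgk1 above Aldoa, and a single mouse that stood apart from its group carries no error.

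Ratios of isozymes within a mouse do not depend on how libraries are scaled. They can still move with a trend on transcript length, and are not given here under the length corrections. With the longest-transcript correction the log2 fold changes of Pfkp and Pfkl were -0.05 and 0.57, against -0.80 and 0.43 without it. Of 8 pairs compared with a two-sided exact permutation test (5 against 4 mice, smallest possible p = 0.0159), 8 differed at an adjusted p below 0.05 over the 8 pairs. The genes were chosen with earlier results of these data known, and no share over other gene pairs is given here. Of all genes tested, 34.1% were called higher and 36.8% lower, so a ratio that differs is not by itself particular to isozymes. Hk2 over Hk1, as a log2 ratio of counts, was -0.92 ± 0.14 (SD, n = 5) in the controls and -0.02 ± 0.39 (n = 4) in the Supt6 KO mice (exact permutation adjusted p = 0.0181, as for every pair named here other than Slc16a3 over Slc16a1). Pfkp over Pfkl, the liver type, fell from 1.147 ± 0.19 to 0.05 ± 0.36, while Pfkp over Pfkm, the muscle type, rose from -0.71 ± 0.22 to 1.29 ± 0.41. Supt6 KO mouse 4 had the lowest Pfkp over Pfkl, at -0.49. Counts are not per length, so only the change of a ratio between groups is read, not its size.

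Ldha over Ldhb, the subunit that favours the use of lactate, rose from 2.20 ± 0.15 to 4.26 ± 1.08. Eno1 over Eno3, the muscle enolase, rose from -0.09 ± 0.34 to 1.94 ± 1.16. Aldoa over Aldoc, the brain type of aldolase, fell from 5.99 ± 0.26 to 4.96 ± 0.26, and Slc2a1 over Slc2a3, the high-affinity transporter of neurons and leukocytes, rose from 3.95 ± 0.11 to 5.06 ± 0.42. For these 6 pairs and Hk2 over Hk1 no Supt6 KO mouse overlapped a control. Slc16a3 over Slc16a1, the lactate exporter MCT4 over MCT1, overlapped and rose from -3.22 ± 0.24 to -2.20 ± 0.90 (exact permutation p and adjusted p = 0.0317). Its call was lost in 7 of 9 removals of a single mouse (exact permutation p = 0.0571 to 0.0714), and the difference was 1.03 with all mice and 0.65 without Supt6 KO mouse 4.

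Pfkm, Eno3 and Pgam2 are genes of skeletal muscle, and muscle markers moved with them. Of 10 muscle markers 9 fell, their sum was 4810 to 6383 CPM in the controls and 945 to 1523 CPM in the Supt6 KO mice, and Acta1 was the most abundant. Aldoa, Pkm and Hk2 are also used by muscle. The part of muscle content in their values was not tested.

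Markers of other cells moved too. Of 8 neutrophil markers 6 rose and 1 fell, with sums of 14.0 to 42.8 CPM in the controls and 4571, 5170, 6449 and 2516 CPM in the Supt6 KO mice, of which S100a9 was the most abundant, a gene that stressed keratinocytes also express. The granule gene Mpo was at 0 in 3 of the 4 Supt6 KO mice, Ly6g did not exceed 0.69 CPM and Elane did not pass the filter. Proliferation markers rose in 4 of 6 cases, with Pcna the most abundant. Of 6 macrophage markers 5 rose and 1 fell, with summed levels of 81.8 to 192 CPM in the controls and 208 to 256 CPM in the Supt6 KO mice, and Mrc1 the most abundant. Of 7 hair follicle markers 7 fell, though control 5 had a sum of only 8.86 CPM against 133 to 1458 in the other controls. Krt71 was the most abundant of them and Shh was at 0 in every Supt6 KO mouse. Basal keratinocyte markers fell in 5 of 6 cases (Krt14, the most abundant, did not pass), fibroblast markers in 4 of 6 (Col3a1 most abundant, sums of 2928 to 10540 CPM against 1948 to 3781), adipocyte markers in 4 of 6 (Fabp4, 224.2 to 410.6 against 278.3 to 424.3) and endothelial markers in 4 of 5 (Pecam1, 48.0 to 103.9 against 30.6 to 41.1). Among 5 T cell markers tested 3 fell and 1 rose (Cd3g, 24.1 to 33.3 against 4.74 to 10.0). The basal sums were 11550 to 13170 CPM in the controls and 8384, 5790, 7001 and 14080 CPM in the Supt6 KO mice. Of 6 suprabasal markers, with Krt10 the most abundant, 3 rose and none was called lower, and the sum in the controls was 20100 to 21940 CPM. By gene, on the log2 scale, the muscle genes Myh4, Actn3, Atp2a1 and Myh1 fell by 4.38, 4.33, 3.68 and 3.66, the cartilage genes Chad, Col2a1, Acan and Matn3 showed log2 fold changes of -3.81, -3.86, -3.55 and -3.42, and the hair follicle genes Krt25, Krt31 and Lhx2 fell by 10.5, 8.91 and 1.76. The keratinocyte genes Krt15, Col17a1, Trp63, Krt5 and Itga6 fell by 2.65, 2.45, 1.21, 0.86 and 0.72, and Krt1, Ivl and Krtdap rose by 3.65, 1.99 and 1.82. The stromal genes Col1a1, Col1a2, Pdgfra and Dcn fell by 3.64, 2.37, 0.96 and 0.75, the adipocyte genes Lep, Plin1, Cidec and Adipoq by 3.04, 2.88, 1.90 and 1.18, and the endothelial genes Cdh5, Kdr, Pecam1 and Tek by 2.11, 1.19, 1.08 and 0.75. In the leukocyte marker lists S100a8, Retnlg and Csf3r rose by 7.87, 6.59 and 4.08. C1qb, C1qa, Cd68 and Adgre1 rose by 1.48, 1.08, 1.03 and 0.52. Cd8a rose by 1.88, but with library totals it was below 1 CPM in every mouse and its groups overlapped. Cd3e, Cd3g, Csf1r and Cd3d fell by 4.13, 2.65, 1.83 and 0.75. Of the proliferation genes Birc5, Ccnb1, Cdk1 and Pcna rose by 2.98, 2.45, 2.27 and 0.69. Without Supt6 KO mouse 4 the values of Ccnb1, Cdk1 and Pcna were 1.45, 1.53 and 0.42.

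Several of these marker counts moved with the scaling or the length correction. Macrophage markers called higher numbered 2 in place of 5 with library totals and with the longest transcript, and 3 with the implied length and the span correction. Cd68 and C1qa lost their calls under all 4 of these settings, C1qb with the longest transcript, and Adgre1 was at -0.19 with library totals and lost its call when any of 6 single mice was left out. Of the suprabasal markers 3 were called lower with library totals, Krt10 (-0.55), Sbsn (-0.96) and Dsg1a (-0.63), and 1 under each length correction. Krtdap lost its call under both length corrections and was at -0.27 with the implied length. The endothelial markers called lower numbered 5 with library totals, 2 under both length corrections and 3 with the span correction, with Kdr uncalled under both lengths and Tek under both lengths, the span correction and without Supt6 KO mouse 3. Fibroblast markers called lower numbered 6 with library totals, 2 with the longest transcript and 3 with the implied length, where Pdgfra was uncalled under both lengths and Dcn with the longest transcript. Itga6 lost its call with the implied length and the span correction. Proliferation markers called higher numbered 5 in place of 4 under both length corrections, where Mki67 and Top2a were called and Pcna was not, and 3 with library totals and the span correction, where Pcna was again not called. Mki67 was at 0.47 without correction and at 1.39 and 1.54 under the length corrections, and Top2a at 0.57, 0.97 and 1.13. Cd3d lost its call when any of 5 single mice was left out, Supt6 KO mouse 4 among them. The muscle, cartilage and hair follicle genes named above kept their calls under these settings. The part of these cells in the levels of the 10 genes was not tested.

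Among the 21 other enzymes and isozymes of glycolysis listed, 17 were in the table and 16 passed the filter, of which 7 rose and 5 fell. Of all genes tested, 34.1% were called higher and 36.8% lower, and these shares apply beside the counts of every other list as well. The median log2 fold change of the 16 was 0.41, against -0.07 over all genes. Without Supt6 KO mouse 4, 7 were called higher and 6 lower, with a median of 0.34 against -0.12. Pgam1, the phosphoglycerate mutase of non-muscle tissue, which acts on the product of Pgk1, was at 137 to 201 CPM in the controls and at 432, 445, 568 and 1070 CPM in the Supt6 KO mice (1.88 on the log2 scale, SE 0.26, edgeR adjusted p = 5.9e-05). Tpi1, which interconverts the triose phosphates, was at 208 to 300 CPM and at 369, 388, 463 and 754 CPM (0.96, SE 0.21, edgeR adjusted p = 0.0018). In both cases every Supt6 KO mouse was above every control (with library totals Tpi1 overlapped), and the call for Tpi1 was lost with library totals, with the longest-transcript correction and with the span correction (log2 fold changes of 0.32, 0.50 and 0.47). Hk3, the hexokinase of myeloid cells, rose by 2.44 on the log2 scale from under 0.79 CPM to 1.83 to 2.93 CPM, Adpgk, which phosphorylates glucose with ADP, by 1.31, Gapdhs by 1.28, Aldoc by 1.13 and Bpgm by 0.40. With library totals Gapdhs, Aldoc and Bpgm lost their calls, as did Gapdhs with the longest transcript and Bpgm under both length corrections, and Bpgm was at -0.30 with library totals. Among those that fell were Pfkm, by 2.86 on the log2 scale, Pgam2 by 1.35, Eno3 by 1.08 and Ldhb by 0.72. Gpi1, the isomerase between the hexokinase and phosphofructokinase steps, was at 224 to 255 CPM in the controls and at 204 to 274 CPM in the Supt6 KO mice and did not pass the test (log2 fold change -0.12, edgeR adjusted p = 0.42). It was called lower without Supt6 KO mouse 4 (-0.23, adjusted p = 0.042) and with library totals (-0.79, adjusted p = 0.0017).

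Among 10 other glucose transporters tested, 2 rose and 6 fell. Slc5a1, the sodium-coupled transporter SGLT1, was at 26.3 to 41.1 CPM in the controls and at 115, 109.5, 99.7 and 118 CPM in the Supt6 KO mice, all far above the controls (1.64 on the log2 scale, SE 0.14, edgeR adjusted p = 1.9e-06). Slc2a6 rose by 0.94 from below 1 CPM, and lost its call with library totals and with the span correction. Slc2a12 fell by 2.94 on the log2 scale, the fructose transporter Slc2a5 by 2.64, Slc2a10 by 1.69, Slc2a13 by 1.63, the insulin-responsive transporter Slc2a4 by 1.57 and Slc2a8 by 0.99. Slc2a3 was at 2.52 to 3.44 CPM in the controls and at 2.26 to 5.39 CPM in the Supt6 KO mice and did not pass the test (log2 fold change 0.31, edgeR adjusted p = 0.27). It was 0.06 without Supt6 KO mouse 4, and it was called higher under the longest-transcript (0.84, adjusted p = 0.0047), implied-length (0.66, adjusted p = 0.02) and span (0.64, adjusted p = 0.025) corrections.

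The bifunctional enzymes that set fructose 2,6-bisphosphate, the activator of phosphofructokinase, were split. Pfkfb4 rose (log2 fold change 1.06, SE 0.13, edgeR adjusted p = 2.7e-05), Pfkfb1 rose (0.87) from 1.596 to 2.436 CPM in the controls to 1.92 to 6.04 CPM in the Supt6 KO mice, and Pfkfb2 fell by 0.68 on the log2 scale. Among other alternatives, Pfkfb1 lost its call without control 4, without Supt6 KO mouse 3 and without mouse 4 (0.58, adjusted p = 0.08), and with library totals and the implied length. Pfkfb2 lost its call with the implied length, at 0.01. Of the 6 lactate carriers and their chaperones 3 rose and 2 fell. Slc16a3 was at 7.10 to 10.4 CPM in the controls and at 16.6, 16.6, 30.1 and 70.3 CPM in the Supt6 KO mice (1.85 on the log2 scale, SE 0.38, edgeR adjusted p = 0.0011), and was 1.18 without mouse 4. Bsg, the chaperone of both carriers, rose by 0.98 and Slc16a1 by 0.56, and both lost the call with library totals, where Slc16a1 was at -0.12. Slc16a7 and the chaperone Emb fell by 1.75 and 0.97 on the log2 scale, and Slc16a7 lost its call with the implied length (-0.62, adjusted p = 0.073).

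Of 13 genes that carry pyruvate into the mitochondrion or set its oxidation 4 rose and 3 fell. Pdk1, a kinase that inactivates pyruvate dehydrogenase, rose by 0.80 (SE 0.12, edgeR adjusted p = 0.00015), and its relatives Pdk2 and Pdk4 fell by 3.02 and 2.43 on the log2 scale. Pdk2 was at 37.3 to 40.3 CPM in the controls and at 6.18, 4.56, 3.75 and 4.56 CPM in the Supt6 KO mice. The carrier subunit Mpc2 rose by 0.98, Dld by 0.45 and Pdhx by 0.30, and Dlat fell by 0.55. Of the 13 genes, 5 were called higher and 4 lower without Supt6 KO mouse 4, and none higher and 6 lower with library totals. With library totals none of the 4 risers (Pdk1, Mpc2, Dld and Pdhx) was called, and Mpc2 also lost its call with the implied length, at -0.10. Pdhx was at an adjusted p of 0.045 and lost its call in 13 of the 19 alternatives, among them the removal of any of 7 single mice (all but control 3 and Supt6 KO mouse 2), with 0.21 without Supt6 KO mouse 4. Dlat lost its call without Supt6 KO mouse 1, 2 or 3 and under both length corrections, and was at -0.83 without mouse 4. In the pentose phosphate pathway Rpe (1.52), Pgls (0.68) and Rpia (0.29) rose and H6pd fell by 1.20, of 8 tested, while the NADPH-making G6pdx (-0.12) and Pgd (0.01) did not pass the test. G6pdx was called lower without Supt6 KO mouse 4 (-0.39, adjusted p = 0.013) and with library totals (-0.77, adjusted p = 0.021), and Pgd with library totals (-0.65, adjusted p = 0.03). Of the 8 genes, 3 were called higher and 3 lower without mouse 4, and 1 higher and 6 lower with library totals, where Pgls was at -0.04 and Rpia was called lower at -0.40. Pgls and Rpia also lost their calls with the implied length, Pgls with the span correction, and Rpia with upper-quartile factors, with a stricter filter (10 counts or more per mouse), and without control 1, control 3 or Supt6 KO mouse 3.

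Genes of glucose storage and synthesis were mostly lower. Of 14 glycogen genes 12 fell and 1 rose, with a median log2 fold change of -1.30. Pygm, the muscle glycogen phosphorylase, fell by 3.56 on the log2 scale, Gaa, the lysosomal glucosidase, by 2.40, Phkg1 by 2.37 and Pygb, the brain phosphorylase, by 2.28, whereas Pgm2 rose by 0.55 and lost its call with library totals and the longest transcript. Of 6 genes of gluconeogenesis 5 fell, Fbp1 by 3.76, Pck1 by 2.37, Pcx by 1.34, Fbp2 by 1.33 and G6pc3 by 0.85. The muscle markers given above fell with Pygm, Phkg1 and Fbp2. Fbp1 ranked the controls as the hair follicle gene Krt25 did. With library totals, Fbp1 was at 15.1, 2.00, 9.11, 3.99 and 0.90 CPM in controls 1 to 5. Krt25 was at 416, 37.7, 153, 88.2 and 0.37 CPM in the same mice. The part of hair follicle content in Fbp1 was not tested.

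Among 9 factors of the hypoxia pathway 2 rose and 3 fell, and with library totals 2 were called higher and 6 lower, with Epas1 (-0.93), Egln1 (-0.54) and Egln2 (-0.61) added. Hif1a was at 94.3 to 122 CPM in the controls and at 115, 101, 112 and 217 CPM in the Supt6 KO mice and did not pass the test (log2 fold change 0.32, SE 0.21, edgeR adjusted p = 0.19). It was -0.004 without Supt6 KO mouse 4, and it was called higher under the longest-transcript (0.63, adjusted p = 0.013), implied-length (0.78, adjusted p = 0.0033) and span (0.51, adjusted p = 0.041) corrections. Egln3, an oxygen-sensing hydroxylase that is itself a target of HIF, was at 62.6 to 96.1 CPM in the controls and at 273, 472.5, 829 and 443 CPM in the Supt6 KO mice (2.60, SE 0.27, edgeR adjusted p = 8e-06), and Vhl, which marks HIF for degradation, rose by 1.47. Hif3a, Hif1an and Arnt, the partner of HIF-1α, fell by 2.05, 1.90 and 0.50 on the log2 scale, and Arnt lost its call with the implied length (-0.07) and the span correction (-0.22).

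Of 12 HIF targets outside glycolysis 6 rose and 4 fell, against 4 higher and 6 lower with library totals. Ankrd37 rose by 4.32, from 1.27 to 2.60 CPM in the controls to 27.3, 39.1, 66.2 and 19.8 CPM in the Supt6 KO mice, and the mitochondrial protein gene Higd1a by 2.91. Bnip3, a mitophagy receptor, rose by 1.48, the vascular growth factor Vegfa by 1.41, Car9 by 1.499 and Adm by 0.78. The call for Car9 was lost without Supt6 KO mouse 4 (0.45, adjusted p = 0.16), and those for Car9 and Adm were lost with library totals, the longest transcript and the span correction, and that for Adm also with the implied length. P4ha2, Plin2, Ddit4 and P4ha1 fell by 1.18, 0.86, 0.66 and 0.56 on the log2 scale, and P4ha1 lost its call with the implied length (-0.19).

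Of 13 other regulators of glucose uptake and glycolysis 11 fell and 1 rose, with a median log2 fold change of -1.64. With the longest transcript 9 were called lower (median -0.97) and with the implied length 8 (median -0.81), Akt2 and Prkaa1 losing their calls under both and Insr under the implied length. Txnip, an inhibitor of glucose uptake whose transcript normally follows glucose supply, was at 1037 to 1816 CPM in the controls and at 361.5, 391.5, 330.5 and 147 CPM in the Supt6 KO mice (-2.18 on the log2 scale, SE 0.31, edgeR adjusted p = 6.8e-05). Its relative Arrdc4 rose instead, from 57.8 to 90.5 CPM in the controls to 262, 281, 244 and 118 CPM in the Supt6 KO mice (1.63, SE 0.23, edgeR adjusted p = 7.3e-05). The insulin receptor substrates Irs1 and Irs2 fell by 2.86 and 2.34 on the log2 scale (-1.85 and -1.57 with the implied length), Mycn by 3.13, Mlxipl by 2.17 and Myc by 0.46. These are single transcripts, and no measure of glucose flux or lactate was analysed here.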

How the data were processed

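Bulk RNA-seq of skin was deposited for 5 control and 4 Supt6 KO mice. Per the labels and the study's methods, the authors aligned reads to mm10 with Bowtie2 2.3.4.3 and made estimated counts per gene with RSEM 1.3.1 (the submitters' processing notes also list HISAT and DESeq2 1.4.5). The annotation release is not given in the sources used here. TPM, also deposited by the authors, was present for 6 mice and used for levels and for the implied lengths.

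Estimated counts (9% of values not whole, to within 0.005) were rounded, genes with a sum of at least 10 kept, and groups compared with edgeR 4.0.16 (R 4.3.3; TMM, quasi-likelihood test, Benjamini-Hochberg over 16426 genes). Symbols, positions and promoters came from RefSeq (17917 of 17943 IDs matched). Isozyme ratios used log2 counts plus 0.5 and two-sided exact permutation tests (scipy 1.17.1). Fits were tested on simulated data. Alternatives were each mouse left out in turn, a replicate block, a transcript length trend, other filters and scalings (library totals, upper quartile, TMM without the 50 most abundant genes) and DESeq2 1.42.0. The implied-length and span corrections were added after seeing the data, the former because the longest annotated transcript, used first, is far from the expressed one for some genes.

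The 10 genes and the lists were chosen with earlier results of these data known. Named were the 10 genes, Supt6, the isozyme pairs, and from each list up to 4 called genes with the largest fold change, a mean of at least 1 CPM and no overlap, plus all called genes of a direction with 5 or fewer. A result that this rule names is not reported here. Of the other genes named, Tpi1, Adpgk, Gapdhs, Bpgm, Gpi1, Slc2a4, Slc2a8, Slc2a13, G6pdx, Pgd, Hif1a, Car9, Adm, Myc and Mlxipl were picked after their values were seen, as were some marker genes. The labels give no batch, and p-values measure the spread between these samples, which may be technical in part.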

Additional observations from a re-analysis of the deposited data

Results flagged for a closer look

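Values were looked at again where the highest or lowest mouse of a group lay apart from the rest by Dixon's criterion. Of 316 groups examined, 15 met it, where chance gives about 15.8 (1 in 20) if the groups were independent. They are the same 9 mice measured on related genes and sums, so the number cannot show whether any mouse is unusual. Supt6 KO mouse 4 met the criterion more often than any other mouse. In Supt6 KO mouse 4, Pfkl was at 120.2 CPM (group median 41.57), Dlat at 73.32 (40.41), Cdh5 at 2.55 (3.601), the log2 ratio Pfkp/Pfkl at -0.4891 (0.2164), summed suprabasal keratinocyte markers at 20570 CPM (40630) and summed proliferation markers at 941.4 CPM (364.6). In Supt6 KO mouse 1, Mpo was at 0.04178 CPM (0) and Cd3e at 0.8774 (0.304), and in Supt6 KO mouse 2 C1qb was at 46.82 (63.89). In control 5, Slc2a10 was at 6.441 CPM (3.367), Pgls at 32.92 (48.14), Pdgfra at 41.7 (21.37) and Mrc1 at 42.85 (18.67). Mycn was at 2.434 CPM in control 1 (1.04) and Cd8a at 0.3833 CPM in control 2 (0.1782). None of the 10 genes met the criterion in either group.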

How the results depend on the processing

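Slc2a1, Hk1, Pgk1 and Ldha kept direction and call under all 19 alternatives. Their log2 fold changes ranged from 0.78 to 1.57, -2.16 to -1.06, 1.64 to 2.50 and 0.73 to 1.502. Hk2 kept its call in 17 (range -1.34 to -0.04), Pfkp in 18 (-1.45 to -0.05) and Eno1 in 18 (0.52 to 1.34), as given above. The longest-transcript length was the correction run first. It took the call from Pfkp, and the implied length, chosen afterwards, gave it back at an adjusted p of 0.046, so the call for Pfkp rests on that choice. Members called higher at 2-fold or more numbered 4, against 1 with library totals and 2 with the longest-transcript correction, and 3 to 4 when a mouse was left out. Other glycolysis enzymes called higher numbered 7, against 3 with library totals, 4 with the longest-transcript correction, and 7 to 8 when a mouse was left out. Shares of all genes called under these settings are not given here, so these shifts cannot be read as particular to the listed genes. The median log2 fold change over all genes was -0.76 with library totals and -0.02 with the longest-transcript correction, against -0.07.

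Genes that were not called changed sign. Aldoa was at -0.61 with library totals, -0.021 with upper-quartile factors, -0.44 with the longest transcript, -0.36 with the implied length, -0.30 with the span correction and -0.017 without Supt6 KO mouse 4, the other mice giving up to 0.103. Gapdh was at -0.23 with library totals, -0.066 with the implied length, -0.028 with the span correction and -0.033 without mouse 4, the other mice giving up to 0.565. Pkm was at -0.41 with library totals and -0.263 without mouse 4, the other mice giving up to 0.378. The cause was not tested.

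Replicate numbers showed no clear pairing of the mice, though 4 pairs cannot settle this. Deviations of same-numbered mice correlated at -0.01 to 0.24 over 4 pairs, with a mean of 0.13 against -0.025 over the 16 other pairs. In all, 2 of 8 mice correlated best with their own number. With the replicate block, 4 members were called higher and 3 lower, and 3 were higher at 2-fold or more. Shares of all genes called under the block are not given here. Of the related and marker genes named above, Pfkfb1, Pdhx, Rpia, Car9 and Tek lost their calls under the block. Under the block 0 of 8 isozyme ratios passed, since 4 pairs cannot give a p below 0.125. Leaving out a mouse left 7 to 8 ratios called, with Slc16a3/Slc16a1 the one lost. Depth was even between mice and may limit genes near or below 1 CPM, such as Gapdhs, though this was not tested.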
